A study of Mus musculus with 32 samples.

Results

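The 6 genes described here are Dbp, Tef, Hlf, Per3, Nr1d1 and Nr1d2, which encode output factors and repressors of the circadian clock. They were chosen by name, and each was looked up in the synovium table and in the cartilage table. All 6 are among the 1178 genes of the synovium table and 0 of the 6 are among the 1606 genes of the cartilage table, which together hold 2544 different genes. The values below are therefore from synovium, and cartilage is described only through other clock genes.

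The clock of mammalian cells is a loop in which the BMAL1 and CLOCK proteins bind E-box sequences and switch on genes whose products later repress them. Dbp, Tef and Hlf are E-box driven genes whose proteins, the PAR bZIP factors, carry the rhythm on by activating promoters with D-box sequences, where the repressor NFIL3 competes with them. Nr1d1 and Nr1d2 encode the nuclear receptors REV-ERBα and REV-ERBβ, which repress Bmal1 and other genes through ROR elements, and PER3 is a PERIOD protein of the repressing arm. In most mouse tissues, joint tissues included, the transcripts of these genes rise and fall over the day.

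RNA sequencing measured bulk tissue of C57BL/6 mice, with no transgene or other allele named in the labels. The 18 synovium samples form the groups Control, R1, R2, and MMS at D3, D7 and D14, with 3 replicates in each. The 14 cartilage samples form these groups and MMS D28, with 2 replicates in each. What MMS, R1 and R2 stand for is not written in the labels, the numbers after D carry no unit, and neither age nor sex nor the hour of collection is given. Whether replicates come from separate mice is not said, so p-values measure the spread between samples, which may be technical.

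The synovium values are FPKM, fragments scaled to transcript length and to the mapped total, and sequencing depth is unknown. The table holds genes selected by a rule that is not stated: the means of Control and MMS D14 were at least 1.5-fold apart in 1155 of 1178 genes (98.0%). Replicates of a group correlated over all genes with Pearson's r between 0.940 and 0.996. Of 5 markers of synovial lining fibroblasts 4 were listed, without the lubricin gene Prg4, and no macrophage, neutrophil or B cell marker of the lists used was among the 1178 genes. All 14 adipocyte markers were listed, and of 14 skeletal muscle markers 1, Myl1.

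On the GRCm38 mouse genome, Dbp lies at chr7:45705088-45710203 on the plus strand and Tef at chr15:81802421-81826863 on the plus strand. On the minus strand lie Hlf at chr11:90336536-90390895, Nr1d1 at chr11:98767932-98775333, Per3 at chr4:151003652-151044665 and Nr1d2 at chr14:18204054-18239127. All 6 are protein-coding genes. Exons of 3 of them overlap exons of a gene on the opposite strand: 539 bases (18% of the exonic bases) of Dbp with Sphk2, 263 bases (8.55%) of Nr1d1 with Thra, and 193 bases (2.45%) of Tef with the antisense RNA Gm17597. Whether reads were counted by strand is not stated, so the values of these 3 genes may include reads of their partners.

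Promoter windows of RefSeq on GRCm38.p6, from 250 bases before to 50 bases after a start site, were found for all 6 genes and searched on both strands for 3 motifs of the clock. No motif had a match in the windows of different genes. The stretches that hold a match are printed as a description, and their part in the shared movement described further on was not tested. They run 5′ to 3′ along the gene's strand, with the motif in capitals. The Per3 stretch, chr4:151044796-151044890 on the minus strand, has the D-box TTATGTAA at 205 and at 158 bases before the start.
Per3: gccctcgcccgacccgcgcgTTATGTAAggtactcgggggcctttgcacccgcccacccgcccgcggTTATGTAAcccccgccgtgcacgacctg
The Nr1d2 stretch, chr14:18239158-18239203 on the minus strand, has the ROR element core AGGTCA at 77 bases before the start.
Nr1d2: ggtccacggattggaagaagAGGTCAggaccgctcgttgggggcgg
The Tef stretches, chr15:81802526-81802571 and chr15:81811256-81811301 on the plus strand, belong to separate start sites and have the E-box CACGTG at 127 and 138 bases before them.
Tef, first start: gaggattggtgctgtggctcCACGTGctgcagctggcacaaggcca
Tef, further start: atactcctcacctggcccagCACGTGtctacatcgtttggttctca

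Of all 32851 windows of the same length in that table, 1.06% held a D-box (TTATGTAA or TTACGTAA), 7.15% held CACGTG and 16.3% held AGGTCA. The Dbp, Hlf and Nr1d1 windows held none of the letters searched. A match describes these letters in this window and is not a measured binding site. No motif overlaps another in these stretches.

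In 3 synovium libraries the genes stood far from the other libraries of the same group, and this bears on every comparison below. Control replicate 3 and R2 replicate 3 were high, and MMS D7 replicate 3 was low. In Control, the highest library exceeded the lowest 8.13-fold for Dbp, which 2 of all 1178 genes reached, Dbp among them, against a median of 1.30-fold over all genes. The same ratio was 4.08 for Nr1d2, 3.36 for Per3, 2.52 for Tef, 2.39 for Hlf and 1.70 for Nr1d1. In R2 it was 10.8 for Dbp, 7.40 for Per3, 7.29 for Hlf, 5.59 for Tef and 4.45 for Nr1d2, but 1.11 for Nr1d1. In MMS D7 it was 6.49 for Dbp and 4.11 for Nr1d1. The cause of this spread was not tested, and the labels name no batch for these libraries.

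**Figure D1:**
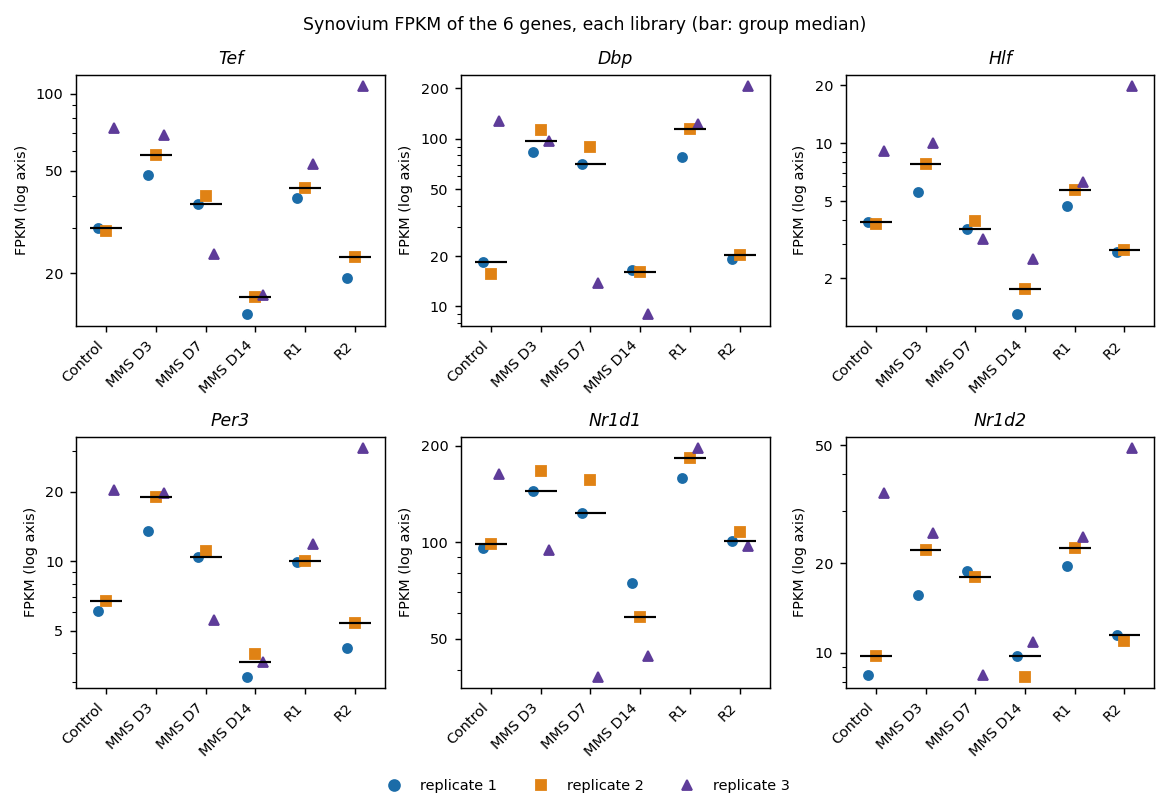
FPKM of each of the 6 genes in every synovium library on a log axis, by group, with the replicate number as the symbol and the group median as a bar. The third replicate stands well above the other 2 in Control for all 6 genes and in R2 for all except Nr1d1, and below them in MMS D7.

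Dbp, a D-box activator and one of the most strongly rhythmic transcripts of many tissues, had the widest range of the 6 genes. Its FPKM was 18.4, 15.6 and 127 in Control, 83.7, 112 and 97.7 in MMS D3, and 70.8, 89.6 and 13.8 in MMS D7. It was 16.6, 16.1 and 8.97 in MMS D14, 78.4, 115 and 122 in R1, and 19.1, 20.2 and 207 in R2. The 18 libraries fell into a low set and a high set: 8 were at or below 20.2 and 10 at or above 70.8, a gap of 3.50-fold within a range of 23.1-fold. All MMS D3 and R1 libraries were in the high set and all MMS D14 libraries in the low set, whereas Control, MMS D7 and R2 were divided. By medians the groups ran R1, MMS D3, MMS D7, R2, Control, MMS D14, and each overlapped the next in that order.

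Tef, the second of the PAR bZIP activators, had an FPKM of 30.05, 29.2 and 73.6 in Control, 48.2, 57.8 and 69.2 in MMS D3, and 37.1, 39.8 and 23.7 in MMS D7. It had 13.8, 16.1 and 16.5 in MMS D14, 39.4, 42.8 and 53.2 in R1, and 19.1, 23.1 and 107 in R2. The 3 MMS D14 libraries were the lowest of all 18. The median order was MMS D3, R1, MMS D7, Control, R2, MMS D14, and only R2 and MMS D14 did not overlap as neighbours in it.

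Hlf, the least abundant of the 6 by median FPKM in Control, is the third PAR bZIP gene. It had 3.92, 3.84 and 9.16 in Control, 5.58, 7.77 and 10.1 in MMS D3, and 3.59, 3.98 and 3.2 in MMS D7. It had 1.30, 1.76 and 2.51 in MMS D14, 4.75, 5.76 and 6.32 in R1, and 2.72, 2.79 and 19.8 in R2. Its MMS D14 libraries too were below all others. The spread in MMS D7, 1.24-fold between the extremes, was the narrowest of the 6 genes in that group, and MMS D7 replicate 3 was close to its group in Hlf.

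Per3, whose protein belongs to the repressing arm of the clock but is dispensable for its core rhythm, had 6.06, 6.70 and 20.3 in Control, 13.6, 19.0 and 19.8 in MMS D3, and 10.5, 11.1 and 5.56 in MMS D7. It had 3.16, 3.95 and 3.65 in MMS D14, 9.95, 10.07 and 11.8 in R1, and 4.19, 5.37 and 31.0 in R2. MMS D14 was again below every other library. In the median order MMS D3, MMS D7, R1, Control, R2, MMS D14, neighbours overlapped except MMS D3 with MMS D7 and R2 with MMS D14.

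Nr1d1 (REV-ERBα) was the most abundant of the 6 by median FPKM per group. Its values were 95.8, 98.8 and 163 in Control, 144, 167 and 94.9 in MMS D3, and 123, 156 and 38.1 in MMS D7. They were 74.8, 58.5 and 44.1 in MMS D14, 159, 183 and 197 in R1, and 101, 108 and 97.5 in R2. Unlike in the other 5 genes, R2 replicate 3 was level with its group, and MMS D3 replicate 3 was the lowest of MMS D3. The lowest of all 18 values was in MMS D7 replicate 3 and the highest was in R1 replicate 3.

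Nr1d2 (REV-ERBβ), its paralog, had 8.46, 9.80 and 34.5 in Control, 15.7, 22.1 and 25.4 in MMS D3, and 18.9, 17.98 and 8.4 in MMS D7. It had 9.80, 8.33 and 10.9 in MMS D14, 19.7, 22.5 and 24.5 in R1, and 11.5, 10.98 and 48.9 in R2. Its Control and MMS D14 medians were equal at 9.80, which no other of the 6 genes showed. In Nr1d2, Tef and Per3 the 8 libraries of low Dbp were all below the 10 of high Dbp. The values on either side were 11.5 and 15.7 for Nr1d2, 30.05 and 37.1 for Tef, and 6.70 and 9.95 for Per3. The widest gap of these 3 genes lay elsewhere, between R2 replicate 3 and the other 17 libraries. In Hlf and Nr1d1 the libraries of the low and the high set of Dbp overlapped.

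At MMS D14 the 3 libraries of Tef, Hlf, Per3 and Nr1d1 were below all 3 Control libraries, and these 4 genes fell in the test. How many of all genes separate these groups in this way was not counted. Tef fell from 44.3 ± 25.4 FPKM to 15.5 ± 1.44 (SD, n = 3 each; log2 change of FPKM + 1 of -1.33, SE 0.467, limma adjusted p = 0.0122 by Benjamini-Hochberg over all genes). Nr1d1 fell from 119 ± 38.0 to 59.1 ± 15.4 (log2 change -0.99, SE 0.380, adjusted p = 0.0198), Hlf from 5.64 ± 3.05 to 1.86 ± 0.611 (-1.15, SE 0.474, adjusted p = 0.0283) and Per3 from 11.03 ± 8.07 to 3.59 ± 0.399 (-1.20, SE 0.517, adjusted p = 0.0345). Dbp, 53.7 ± 63.6 against 13.9 ± 4.25, overlapped with Control and did not pass (-1.26, SE 0.843, adjusted p = 0.156). Nr1d2 also did not pass (-0.53, SE 0.502, adjusted p = 0.305). In bulk tissue, fewer cells of a type and less RNA per cell cannot be told apart.

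The 4 of 6 called in that comparison stand beside 96.9% of all 1178 genes, a share that the selection of the table partly fixes. The median log2 change of the 6 was -1.17, against -1.08 over all genes. Without Control replicate 3, 0 of the 6 were called, with Tef at -0.90 (adjusted p = 0.0841) and Nr1d2 at 0.070. Without any 1 of the MMS D14 libraries 2 of the 6 were called, Tef each time. Centring every library on its median removed a shift of -0.52 between the library medians of these groups. It left log2 changes of -0.80 for Tef, -0.68 for Per3, -0.63 for Hlf and -0.47 for Nr1d1, and ended all 4 calls. The library medians are over selected genes, of which 27.7% were called higher and 69.3% lower here. Centring may thus also remove real change, here and in the comparisons below, and cannot tell it from a difference in library scale. With Control replicate 3, MMS D7 replicate 3 and R2 replicate 3 left out of the fit together, which narrows its estimate of the spread, the same 4 genes were called, with smaller changes of -0.90 for Tef, -0.79 for Hlf, -0.74 for Nr1d1 and -0.69 for Per3. The ratio of the Control mean to the MMS D14 mean was at least 1.5 in all 6 genes. Without Control replicate 3 it was so in 4, with Dbp at 1.23 and Nr1d2 at 0.945.

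Markers of several cell types moved with this comparison. The summed FPKM of the 14 adipocyte markers was 28778 to 34575 in Control and 4876 to 7910 in MMS D14, and no marker was at 0. In MMS D3 the sum was 14046 to 24042, in MMS D7 12904 to 14418, in R1 14344 to 16109 and in R2 14122 to 16179. Lower in MMS D14 than in Control were also the sums of the 4 listed lining fibroblast markers of 5 (600 to 769 in Control, 327 to 419 in MMS D14), of 3 of 4 nerve markers (57.7 to 86.6 and 21.4 to 26.5) and the 1 listed of 4 endothelial markers, Kdr (22.2 to 26.0 and 8.12 to 11.1). The sum of the 5 erythroid markers was lower too (3497 to 4831 in Control, 962 to 2608 in MMS D14). The sum of 3 of 6 fibroblast markers, Col1a1, Col1a2 and Col3a1, was higher (2029 to 2296 and 11150 to 13130). So was that of 2 of 12 chondrocyte markers (159 to 178 and 499 to 573). The part of these cell types in the fall of the 4 genes was not tested. Within Control, the library with the highest Dbp had the lowest adipocyte sum (28778), and within R2 the sums were 14122, 16179 and 15990 where Dbp was 19.1, 20.2 and 207. Most of the sum is Cfd (12767 to 20231 FPKM in Control) and Fabp4 (5718 to 9160), so single markers need not follow it.

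**Figure D2:**
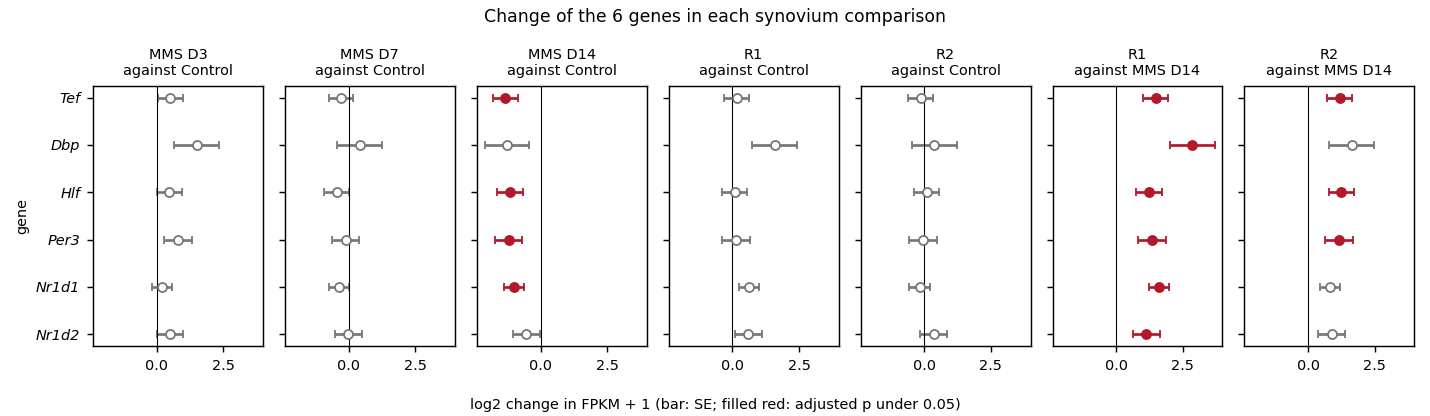
Log2 change of FPKM + 1 for each of the 6 genes in each of 7 synovium comparisons, with the standard error as a bar and filled red points for an adjusted p under 0.05. Filled points are seen in 4 genes for MMS D14 against Control, in 6 for R1 and in 3 for R2 against MMS D14, and in none of the other panels.

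All 6 genes were higher in R1 than in MMS D14, with every R1 library above every MMS D14 library. The share of all genes with such a separation was not counted. Dbp was 105 ± 23.5 FPKM in R1 (n = 3), 7.58 times its MMS D14 mean (log2 change 2.86, SE 0.843, limma adjusted p = 0.00504). Nr1d1 was 179.8 ± 19.1, 3.04 times as high (1.62, SE 0.380, adjusted p = 0.00106), and Tef 45.1 ± 7.19, 2.91 times as high (1.48, SE 0.467, adjusted p = 0.00777). Per3 (1.34), Hlf (1.22) and Nr1d2 (1.12) rose with adjusted p of 0.0227, 0.0230 and 0.0440. Here 89% of all genes were called, and the median log2 change was 1.41 over the 6 genes and 0.65 over all genes. The genes of the table mostly differ between Control and MMS D14, so its selection bears on this share and these changes too. Without MMS D14 replicate 1, without R1 replicate 3, and with centring, which removes a shift of 0.34, the count was 3: Dbp, Tef and Nr1d1 each time. The call of Nr1d2 ended without any 1 of the 6 libraries compared (adjusted p = 0.0570 to 0.104). Marker sums differed between these groups too: in R1 those of lining fibroblasts were 1097 to 1391, of nerve 56.8 to 82.5 and of adipocytes 14344 to 16109, all above MMS D14, and that of fibroblasts was 4159 to 4804, below it. Their part in the rise was not tested.

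R2 against MMS D14 uses the same MMS D14 libraries. All R2 libraries were above all MMS D14 libraries in each of the 6 genes, and 3 passed: Hlf (8.44 ± 9.85 FPKM in R2, log2 change 1.24, limma adjusted p = 0.0219), Tef (49.7 ± 49.6, 1.19, adjusted p = 0.0252) and Per3 (13.5 ± 15.1, 1.16, adjusted p = 0.0452). Dbp (1.63, adjusted p = 0.0766), Nr1d1 (0.81, adjusted p = 0.0545) and Nr1d2 (0.88, adjusted p = 0.104) did not. With the replicate number as a block the adjusted p of Nr1d1 was 0.0475. Of all genes 88.5% were called, and the median log2 change was 1.17 over the 6 and 0.64 over all genes. As for R1, the selection of the table bears on this share and these changes. The share of all genes with every R2 library on the same side of MMS D14 was not counted.

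The 3 calls rest on R2 replicate 3. Without it 0 of the 6 were called in R2 against MMS D14, and the log2 changes were 0.42 for Hlf, 0.42 for Tef, 0.33 for Per3, 0.52 for Dbp and 0.21 for Nr1d2. That of Nr1d1 was 0.84 without it. Without R2 replicate 1 or 2 the count was 5, all except Nr1d1, without MMS D14 replicate 1 it was 1, Nr1d1, and with centring it was 0. The call of Per3 ended without any 1 of the MMS D14 libraries. Fitted on these groups alone, only Nr1d1 was called (adjusted p = 0.00681). The summed FPKM of the 4 listed lining fibroblast markers was 944, 909 and 1870 in the R2 libraries and 327 to 419 in MMS D14. The high sum in R2 replicate 3 came from Htra4 alone (408, 362 and 1459 FPKM in the R2 libraries), while Clic5 (116, 115 and 94.3), Hbegf (317, 316 and 249) and Tspan15 (102, 116 and 67.8) were lowest in that library. The part of these cells in the values of the 6 genes was not tested.

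Against Control, no gene of the 6 was called in MMS D3, MMS D7, R1 or R2, all of which share the Control libraries. In MMS D3, where 55.9% of all genes were called, the log2 changes were 1.51 for Dbp (98.0 ± 14.4 against 53.7 ± 63.6 FPKM, limma adjusted p = 0.137), 0.80 for Per3, 0.51 for Tef, 0.50 for Nr1d2, 0.47 for Hlf and 0.19 for Nr1d1. In MMS D7, where 85.7% of all genes were called, they lay between -0.44 for Hlf and 0.41 for Dbp. In R1, with 61.1% of all genes called, they lay between 0.08 for Hlf and 1.59 for Dbp (105 ± 23.5 FPKM, adjusted p = 0.110). In R2, with 60.8% of all genes called, they lay between -0.18 for Nr1d1 and 0.37 for Dbp. In each of these 4 comparisons 0 of the 6 had an unadjusted p under 0.05, and limma without the variance trend also called 0. All 6 genes overlapped between the groups in each of the 4, and how many of all genes did so was not counted.

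The standard errors of these comparisons were large, 0.380 for Nr1d1 to 0.843 for Dbp on the log2 scale, so changes of this size could not be told from the spread between libraries. The Control library that stood apart set several of the values. Without Control replicate 3, Dbp was called in MMS D3 (log2 change 2.45, limma adjusted p = 0.0217) and in R1 (2.54, adjusted p = 0.0158), and Nr1d2 in R1 (1.19, adjusted p = 0.041). Without R2 replicate 3, Tef (-0.90), Per3 (-0.87) and Hlf (-0.73) were called lower in R2 than in Control. Leaving out Control replicate 3, MMS D7 replicate 3 and R2 replicate 3 together, a choice made after their values were seen and from these genes themselves, gave 5 called in MMS D3, 3 in MMS D7, 5 in R1 and 1 in R2. Those counts describe the remaining libraries and support no result. In that setting Dbp was higher than Control by 2.45 in MMS D3, 2.17 in MMS D7 and 2.54 in R1 on the log2 scale, and by 0.20 in R2.

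The median log2 change of the 6 genes, beside that of all genes, was 0.50 and -0.34 in MMS D3, -0.20 and -0.65 in MMS D7, 0.37 and -0.38 in R1, and 0.02 and -0.38 in R2. Centring removed shifts of -0.12 in MMS D3, -0.28 in MMS D7, -0.19 in R1 and -0.22 in R2. With centring the log2 changes turned positive for Per3 (0.16) and Nr1d2 (0.27) in MMS D7, and for Tef (0.078), Per3 (0.17) and Nr1d1 (0.038) in R2.

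The libraries that were high in 1 of the 6 genes were high in most of the others. Over the 18 libraries, the deviations from the group mean, on the log2 scale, correlated with Pearson's r between 0.80 and 0.99 in the 10 pairs that do not include Nr1d1. Without the 2 libraries farthest from the median in the first gene of a pair, the range was 0.57 to 0.98. The group means were not recomputed, so the libraries left out still shaped the deviations of their group mates. This range therefore does not show how the genes vary without them. Spearman's rho over all 18 libraries was 0.66 to 0.98. The closest pair was Tef and Per3 (r = 0.99). These points share their library and its unknown depth, and the r after centring each library was 0.79 to 0.99. Within the 10 libraries of high Dbp, r of the values was 0.75 to 0.98 in these pairs, and within the 8 of low Dbp it ran from -0.27 to 0.98.

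Nr1d1 followed the others less closely. In the 5 pairs with Nr1d1 the r of the deviations was 0.05 (Hlf) to 0.61 (Dbp). Within the libraries of high Dbp, r of its values with the other 5 was -0.58 to -0.17, and within those of low Dbp it was 0.23 to 0.78. These correlations describe the libraries and were not tested.

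**Figure D3:**
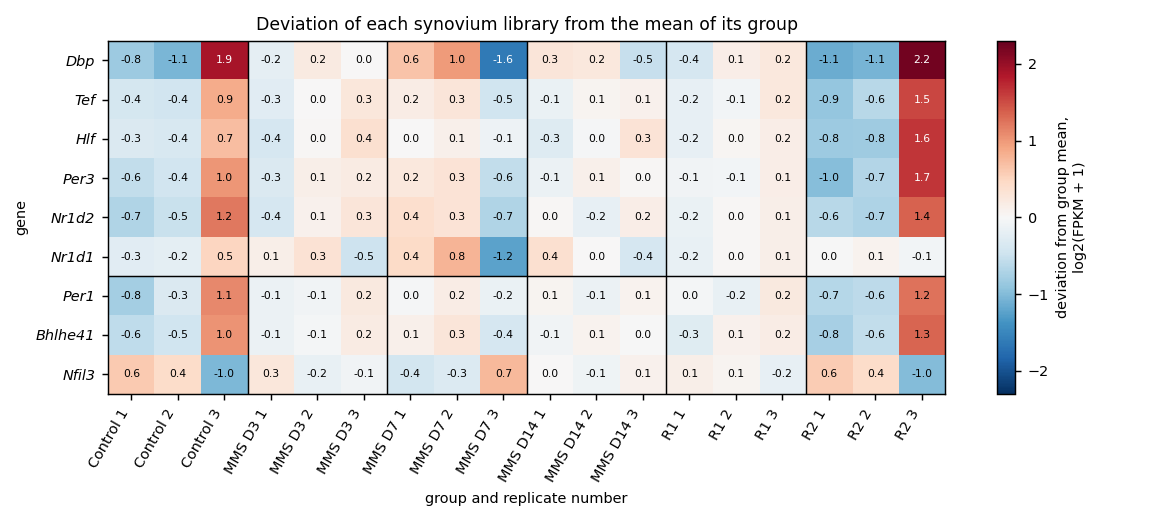
Deviation of each synovium library from the mean of its group, in log2(FPKM + 1), for the 6 genes (above the line) and for Per1, Bhlhe41 and Nfil3 (below it), with red for higher and blue for lower. Control replicate 3 is red for all 6 genes and R2 replicate 3 for all except Nr1d1, with Nfil3 blue in both, and MMS D7 replicate 3 shows the opposite colours.

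Of 39 other gene symbols in 5 lists, of the clock, its outputs and the glucocorticoid response, 7 are in the synovium table. Some genes, such as Arntl (also Bmal1), are in the lists under both symbols. The 7 are Per1 of the core loop, the competitor Nfil3, the clock-driven genes Bhlhe41, Nampt, Klf15 and Pdk4, and the glucocorticoid-induced gene Zbtb16. None of the clock kinase and ligase genes was listed. In MMS D14 against Control 1 of the 7 rose and 4 fell, beside 27.7% of all genes called higher and 69.3% called lower (96.9% in all). Nfil3, the repressor of D-box promoters, was 12.3, 10.7 and 3.29 FPKM in Control and 23.6, 21.7 and 25.3 in MMS D14, and rose (log2 change 1.49, limma adjusted p = 0.00281). Klf15, a clock-controlled regulator of metabolism, was 27.0, 23.5 and 28.3 in Control and 3.21, 5.05 and 4.22 in MMS D14, and fell (-2.41, adjusted p = 1.03e-07). Pdk4 (-1.53, adjusted p = 7.56e-07), Zbtb16 (-1.26, adjusted p = 0.000922) and Nampt (-1.01, adjusted p = 0.00375) also fell, Nampt not after centring (adjusted p = 0.123).

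Nfil3 ran opposite to 5 of the 6 genes library by library. It was lowest in Control replicate 3 (3.29) and R2 replicate 3 (4.09), where Dbp was 127 and 207, and in MMS D7 it was 10.6, 11.5 and 24.9 where Dbp was 70.8, 89.6 and 13.8. The r of the deviations was -0.97 with Dbp and Nr1d2, -0.95 with Per3, -0.92 with Tef, -0.82 with Hlf and -0.56 with Nr1d1. Among 1172 genes outside the 6, Nfil3 had the lowest r of the log2 values over 18 libraries with Dbp, Tef, Per3 and Nr1d2. In R1 and R2 Nfil3 was below MMS D14 (-1.55, adjusted p = 0.00293, and -1.26, adjusted p = 0.0104, by limma), and the latter call ended without R2 replicate 3 (adjusted p = 0.0812).

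**Figure D4:**
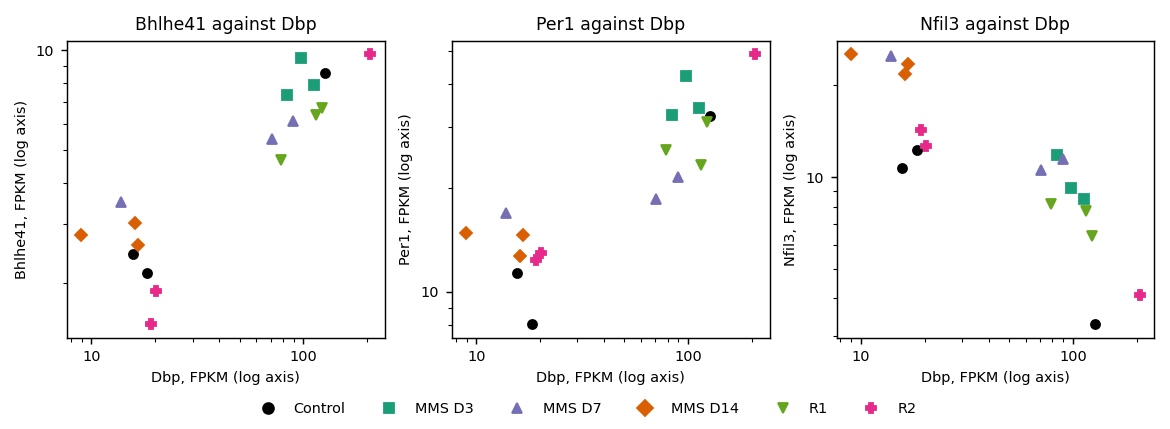
FPKM of Bhlhe41, Per1 and Nfil3 against that of Dbp in the 18 synovium libraries on log axes, with the group as symbol and colour. The libraries form a set at or below 20.2 and a set at or above 70.8 FPKM of Dbp, between which Bhlhe41 and Per1 do not overlap and Nfil3, mostly lower in the second, does.

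Bhlhe41 and Per1, both E-box driven repressors, followed the high and low libraries of Dbp. Bhlhe41 was 2.14, 2.43 and 8.57 FPKM in Control, 1.5, 1.89 and 9.74 in R2, 7.33, 7.85 and 9.48 in MMS D3, and 2.60, 3.02 and 2.79 in MMS D14. Per1 was 8.06, 11.3 and 32.3 in Control, 12.4, 12.95 and 48.9 in R2, 32.5, 34.1 and 42.2 in MMS D3, and 14.6, 12.7 and 14.9 in MMS D14. Per1 rose in MMS D3 against Control (log2 change 1.26, limma adjusted p = 0.0232), with no overlap. That call ended without Control replicate 1 (adjusted p = 0.122), Control replicate 2 (0.0786) or MMS D3 replicate 3 (0.0569). Bhlhe41 was called in none of the 7 comparisons. Within the libraries of low Dbp, r with Dbp was -0.61 for Bhlhe41 and -0.47 for Per1, and within those of high Dbp it was 0.70 for both.

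Over these 7 genes, the numbers called higher and lower were 1 and 0 in MMS D3 (55.9% of all genes called), 0 and 4 in MMS D7 (85.7%), 0 and 1 in R1 (61.1%), and 0 and 2 in R2 (60.8%) against Control. Against MMS D14 they were 2 and 1 in R1 (89%) and 3 and 1 in R2 (88.5%). In each of these 6 comparisons the share of the 7 called was below that of all genes. Klf15 was 17.2, 16.4 and 22.7 FPKM in R1 and 13.2, 14 and 17.1 in R2, above all MMS D14 libraries (log2 changes of 1.94 and 1.62, limma adjusted p = 7.30e-06 and 2.56e-05).

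By Pearson's r of the log2 values over the 18 libraries, the genes outside the 6 most like Dbp were Bhlhe41 (0.91), Per1 (0.87) and Dnase2a (0.80). Those most like Per3 were Bhlhe41 (0.91), Tfap4 (0.90) and Gstt2 (0.89), and those most like Tef were Gstt2 (0.92), Kcnj8 (0.91) and Tfap4 (0.91). Nr1d2 was nearest to Per1 (0.89), Bhlhe41 (0.87) and Megf10 (0.86). Hlf was nearest to Fmo2 (0.93), Lifr (0.91) and Kcnj8 (0.91). Nr1d1 shared no such gene with the others: its nearest were Tns2 (0.89), Tle1 (0.84) and H2-Q7 (0.79). These values are over libraries that fall into a low and a high set of Dbp and are given as a description.

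In cartilage, where the 6 genes are not among those listed, 12 of the 39 other list symbols are, 6 of them from the glucocorticoid-induced list. The 3 of the core loop and the competitors, Arntl, Per1 and Nfil3, are described here. Arntl, which encodes BMAL1 and is repressed by REV-ERB proteins, had a normalised signal of 10.6 and 10.3 in Control, 5.10 and 4.52 in MMS D3, 3.65 and 3.85 in MMS D7, 7.64 and 4.94 in MMS D14, and 3.82 and 3.74 in MMS D28. It was 5.74 and 6.33 in R1 and 9.89 and 10.2 in R2. Both libraries of every MMS group and of R1 were below both of Control, and Arntl fell in these 5 groups, with limma log2 changes of -0.98, -1.26, -0.67, -1.26 and -0.70 (adjusted p = 0.00149, 0.000193, 0.00437, 6.71e-05 and 0.00483). Both R2 libraries were below Control too, but near it (limma log2 change -0.05, adjusted p = 0.897). The MMS D14 call ended without MMS D14 replicate 2 (adjusted p = 0.0611).

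Per1 moved the other way in cartilage. Its signal was 9.09 and 8.34 in Control, 24.2 and 25.6 in MMS D3, 13.8 and 21.9 in MMS D7, 9.41 and 8.49 in MMS D14, 30.9 and 26.9 in MMS D28, 17.5 and 18.9 in R1, and 11.3 and 12.1 in R2. It rose in MMS D3 (log2 change 1.42, limma adjusted p = 0.000262), MMS D7 (0.93, adjusted p = 0.00283), MMS D28 (1.62, adjusted p = 2.89e-05) and R1 (0.98, adjusted p = 0.00233). MMS D14 overlapped with Control (0.03, adjusted p = 0.877), and R2 was above both Control libraries without passing (0.39, adjusted p = 0.324). Of the 4 MMS groups, MMS D14 had the lowest Per1.

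Nfil3 in cartilage was 8.43 and 8.41 in Control, 13.8 in both libraries of MMS D14, 20.9 and 13.9 in MMS D28, and 14.6 and 13.95 in R1. It rose in these 3 groups (limma log2 changes of 0.65, 0.94 and 0.70, adjusted p = 0.0115, 0.000824 and 0.00817). In MMS D14 the call ended without Control replicate 1 (adjusted p = 0.0551) or MMS D14 replicate 2 (0.0557).

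**Figure D5:**
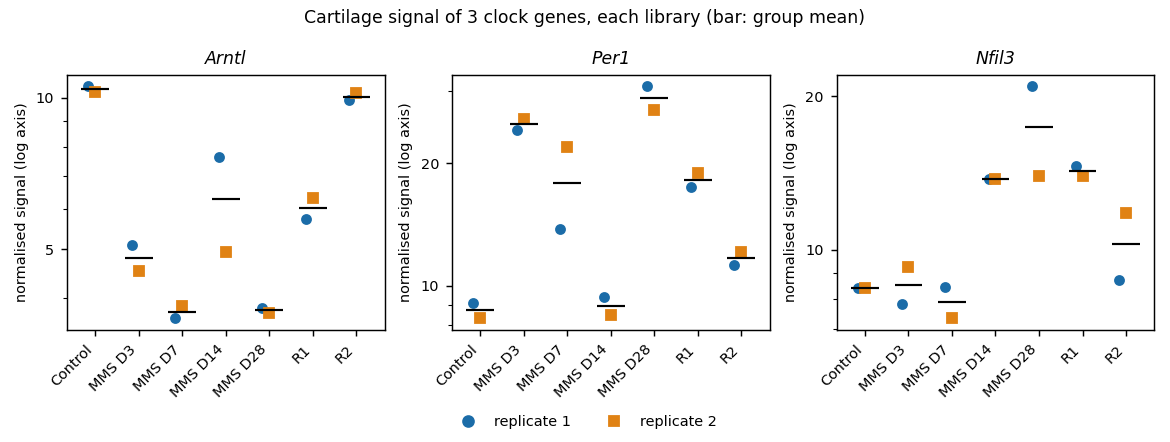
Normalised signal of Arntl, Per1 and Nfil3 in each cartilage library on log axes, with the replicate number as the symbol and the group mean as a bar. Arntl is below both Control libraries in every MMS group, in R1 and, narrowly, in R2, and Per1 is above them in MMS D3, MMS D7, MMS D28, R1 and R2.

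Markers of other cell types moved in cartilage as well, and their part in these changes was not tested. The sum of the 6 B cell markers was 623 to 662 in Control, 126 to 387 over the MMS groups, 305 to 333 in R1 and 802 to 823 in R2, so it was below Control in the 5 groups where Arntl fell. The sum of the 6 osteoblast markers was below Control in the same groups (5448 to 5721 in Control, 1981 to 4571 over the 5). The sum of the 6 neutrophil markers was 27304 to 27613 in Control and higher in the 3 groups where Nfil3 rose, 32359 to 40437 in MMS D14, 42762 to 55960 in MMS D28 and 50176 to 51374 in R1. It was also higher in R2 (28382 to 36005). The sum of the 9 listed of 12 chondrocyte markers was 10107 to 13422 in Control, 14530 to 15234 in MMS D3 and 7782 to 11463 in MMS D7. It was 3467 to 3755 in MMS D14, 3957 to 5659 in MMS D28, 7585 to 8056 in R1 and 8588 to 9681 in R2. It was thus above Control in MMS D3, where Arntl fell, and below it in R2, where Arntl was near Control.

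Of the 12 genes listed in cartilage, 6 were called higher and 2 lower in MMS D3 against Control, beside 23.8% of all 1606 genes called. In MMS D7 3 were higher and 2 lower (22.4% of all genes), in MMS D14 4 and 1 (53.5%), in MMS D28 9 and 3 (97.3%), in R1 6 and 3 (69.2%), and in R2 0 and 0 (0.747%, 12 genes). The glucocorticoid-induced list gave 3 of the 6 higher calls in MMS D3 and 5 of the 9 in MMS D28. All these comparisons share the 2 Control libraries, and the tables of both tissues were normalised separately, so no level is set against synovium.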

How the data were processed

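Bulk RNA was measured by sequencing in synovium (18 samples) and cartilage (14 samples). Per the labels' protocols, RNA was taken with Trizol and libraries followed BGI protocols; per the submitters' processing notes, HISAT2 and mm10 were used. Values of the deposited synovium table are FPKM, as the authors' file headers name them. Those of the deposited cartilage table are a normalised signal, with no unit named. Counting tool and strand are not given in the sources used here, and depth is unknown, so the number of replicates limits the precision.

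Samples were grouped by their labels. With limma 3.58.1 in R 4.3.3, log2 of the value plus 1 was modelled over all groups of a tissue, with a variance trend. Benjamini-Hochberg adjustment ran over all genes of a table, and genes under 0.05 were called. A filter on low values (1 or more in at least a group's number of samples) dropped 0 genes. The fit was tested on simulated data. The 6 genes, the pathway and marker lists were chosen with earlier results of these data known. A gene of the pathway lists is not reported here and is left out of their counts. All 6 genes are named; from each pathway list at most 4 genes per comparison, by adjusted p; and for each of the 6 the 3 others with the highest r.

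Replicate numbers are shared between groups. Deviations of same-numbered samples correlated above 0.1 in 26 of 45 synovium pairs and 12 of 42 cartilage pairs. In cartilage, with 2 replicates in each group, both pairs of any 2 groups have the same r by construction. In synovium, all 3 pairs were above 0.1 for MMS D3, MMS D14 and R2 against Control and for R2 against MMS D14. The same held for MMS D3 with MMS D14 and for MMS D3 with R2. There the numbers may pair samples, which is read from the data and not from the labels. The fit reported above did not pair them, and the replicate number entered only as an alternative.

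Alternatives were centring on library medians, a pseudocount of 0.1, no filter, no trend, a replicate block, only the 2 groups compared, an absolute log2 change of at least 1, and leaving out each library. Leaving out 3 libraries together was chosen after seeing the data. Other software was matplotlib 3.10.9, numpy 2.4.6, pandas 2.3.3 and Python 3.11.15.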

Additional observations from a re-analysis of the deposited data

How the results depend on the processing

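Counts of the 6 genes called depended on single libraries. Over the leave-one-out settings they were 0 to 1 in MMS D3, 0 to 4 in MMS D14, 0 to 2 in R1 and 0 to 3 in R2 against Control. Against MMS D14 they were 3 to 5 for R1 and 0 to 5 for R2. Centring left 0 in MMS D14 against Control and, against MMS D14, 3 for R1 and 0 for R2. It uses medians over the selected genes, so it may also remove real change. Fitting only the 2 groups compared gave 1 in R1 against Control (Nr1d1) and 1 in R2 against MMS D14 (Nr1d1). Leaving out Control 3, MMS D7 3 and R2 3 together gave 5 in MMS D3, 3 in MMS D7, 5 in R1 and 1 in R2 against Control. The share of all genes called was not counted in any of these settings, so the counts have no background beside them.

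Directions turned only in changes that were not called with all libraries. In MMS D7 against Control the lowest and highest log2 changes on leaving out a library were -0.12 and 1.35 for Dbp, -0.51 and 0.14 for Tef, -0.40 and 0.40 for Per3, -0.74 and 0.26 for Nr1d1, and -0.36 and 0.59 for Nr1d2. In MMS D14 they were -0.88 and 0.070 for Nr1d2. In R1 they were -0.073 and 0.58 for Tef, -0.10 and 0.43 for Hlf, and -0.15 and 0.65 for Per3. In R2 against Control they were -0.74 and 1.31 for Dbp, -0.90 and 0.31 for Tef, -0.73 and 0.51 for Hlf, -0.87 and 0.47 for Per3, -0.31 and 0.067 for Nr1d1, and -0.33 and 0.95 for Nr1d2. Centring turned Per3 (0.16) and Nr1d2 (0.27) in MMS D7, and Tef (0.078), Per3 (0.17) and Nr1d1 (0.038) in R2. Leaving out the 3 libraries turned Tef (0.36), Per3 (0.68), Nr1d1 (0.51) and Nr1d2 (0.94) in MMS D7, Nr1d2 (0.070) in MMS D14, and Hlf (-0.38) and Nr1d1 (0.10) in R2. Beyond the library left out, the cause was not tested.

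With the replicate number as a block the adjusted p of Nr1d1 in R2 against MMS D14 was 0.0475, and the block changed no other call of the 6 genes or of the other clock genes named. In cartilage a count of the 6 genes could not be computed.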

Other observations

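The genes outside the 6 whose deviations from the group mean came nearest to theirs over the 18 synovium libraries were looked up after the values had been seen, and are given as a description. Bhlhe41 was the nearest gene to Tef (Pearson's r = 0.98), Per3 (0.98), Nr1d2 (0.96) and Dbp (0.94) among 1172 genes. Gstt2, a glutathione transferase gene that is in none of the clock lists, was among the 3 nearest to the same 4 genes (r = 0.96, 0.96, 0.93 and 0.92 in that order). Hlf was nearest to Htra4 (0.95), a gene of the lining fibroblast list, and to Bhlhe41 (0.93) and Nampt (0.92), and farthest from Creb3l1 (-0.96). Nr1d1 was nearest to a different group of genes, Tns2 (0.92), Celsr2 (0.90) and Por (0.90), the last of which encodes the reductase that passes electrons to cytochrome P450 enzymes.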
